A study of Mus musculus with 9 samples.

Results

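In injured mice, the prelimbic cortex of animals given R-HNK was compared with that of animals given saline, over every gene expressed. The comparison used 6 of the 9 libraries of the study, 3 R-HNK and 3 saline, and took in 21765 tested genes. The injured saline mice had SNI, the usual abbreviation for spared nerve injury, a model of lasting neuropathic pain in which branches of the sciatic nerve are cut, and received saline. The injured R-HNK mice had the same injury and received R-HNK at 10 mg/kg, and R-HNK is (2R,6R)-hydroxynorketamine, a ketamine metabolite. A group of 3 sham-operated mice given saline is set beside them as a level. All tissue was taken on day 14 after surgery, and every injured animal carried the injury in both groups, so R-HNK without injury was not part of the design. The interval between dosing and collection and the strain, sex and age of the mice are not given in the sources used here. The question put by the study is whether R-HNK acts on the prelimbic cortex in lasting pain.

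The prelimbic cortex is the part of the rodent medial prefrontal cortex that helps set how pain is felt and controlled from above. When its neurons fire, calcium entry and the ERK kinase cascade switch on immediate early genes within minutes, through transcription factors such as CREB, SRF and the ternary complex factors. Many of these genes encode transcription factors (the Fos, Egr and Nr4a families), and others encode proteins that act back on the cascade that induced them, such as the Dusp phosphatases and the Sprouty proteins. Ketamine and its metabolites are studied for fast effects on glutamate transmission, in particular through AMPA receptors. The transcripts of immediate early genes are short-lived, so their levels follow recent activity.

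Counting noise was small at this depth. The injured saline libraries held 58755461 to 65688561 counts, the R-HNK libraries 62909267 to 73586375 and the sham libraries 53624337 to 58654404, and no pair of libraries in a group matched within sampling noise. Levels are given in CPM (counts scaled to a fixed library total), with library sizes scaled by the trimmed mean of M-values (TMM), and a change is a log2 fold change of R-HNK over saline in injured mice with its standard error (SE). A gene was called when its p from edgeR's quasi-likelihood test, adjusted by Benjamini-Hochberg over all tested genes, was under 0.05. The sample titles number 3 libraries per group, and each library was taken to stand for a separate animal. An exact permutation test of a single gene with 3 against 3 cannot go below a two-sided p of 0.1. In a bulk sample, fewer cells of a type and less RNA per cell cannot be told apart.

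Markers of cortical excitatory neurons, 12 genes, summed to 8124 to 8735 CPM in injured saline, 7317 to 8041 CPM in R-HNK and 6424 to 8402 CPM in sham libraries. The libraries did not hold the same mix of other markers. Markers of striatal medium spiny neurons, a cell type outside the cortex, summed to 391 to 428 CPM in the 3 injured saline libraries and to 854, 409 and 1168 CPM in R-HNK libraries 1, 2 and 3. In sham mice the sums were 421, 1771 and 1725 CPM. Of the 20 striatal markers 19 had a log2 fold change above 0, with a median of 1.43. None passed by edgeR or limma-voom, 1 passed by DESeq2, and 3 were higher at an unadjusted p under 0.05, against 4.20% of all genes. Ankk1, which lies beside the dopamine D2 receptor gene, had 0 counts in all 3 injured saline libraries and 0.257, 0.108 and 0.468 CPM with R-HNK. The D2 receptor gene Drd2 itself read 1.5, 1.72 and 1.55 CPM in injured saline mice against 17.5, 1.27 and 24.6 CPM with R-HNK. R-HNK library 2 thus lacked the striatal signal, and it was the highest of the 3 R-HNK libraries in markers of the olfactory bulb, lists chosen after seeing the data. Doc2g, a mitral cell gene, read 3.16, 19.9 and 4.32 CPM with R-HNK, 14.8, 2.22 and 2.64 CPM with saline and 33.0, 19.7 and 7.11 CPM in sham mice, so sham libraries and injured saline 1 were raised too. For some results that could rest on these libraries the values without them are given too, but not for every called gene.

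With R-HNK, a small set of activity-linked genes was lower and a small set of developmental transcription factors and early-neuron genes was higher. Of 21765 genes tested 26 were called, 0.119% of those tested. 18 fell (0.0827%) and 8 rose (0.0368%). Across all genes the median log2 fold change was 0.007, and 1625 genes (7.47%) had an unadjusted p under 0.05. All 26 kept their sign in each of 21 other ways of fitting the data, which reuse the same libraries and are no independent support. The number called was less stable: without a single library it was 19, 8 and 7 when injured saline 1, 2 or 3 was left out, 10, 30 and 15 without R-HNK 1, 2 or 3, and 56, 24 and 32 without sham 1, 2 or 3. DESeq2 called 140 genes and limma-voom 49, with all 26 and 25 of the 26 among them. Csrnp1, Trib1, Spry4, Dusp6, Stk40 and Sp9 were called in all 9 of the fits without a library, and each of the other 20 genes lost its call in at least 1. Dlx2, Pax6 and Fam43a were called in only 2 of the 9, and Sertad1 in 3. Klf10, Nr4a1, Egr1, Trib2, Nab2, Pcdhgb5, Cdca7 and Igfbpl1 were called in 4.

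**Figure D1:**
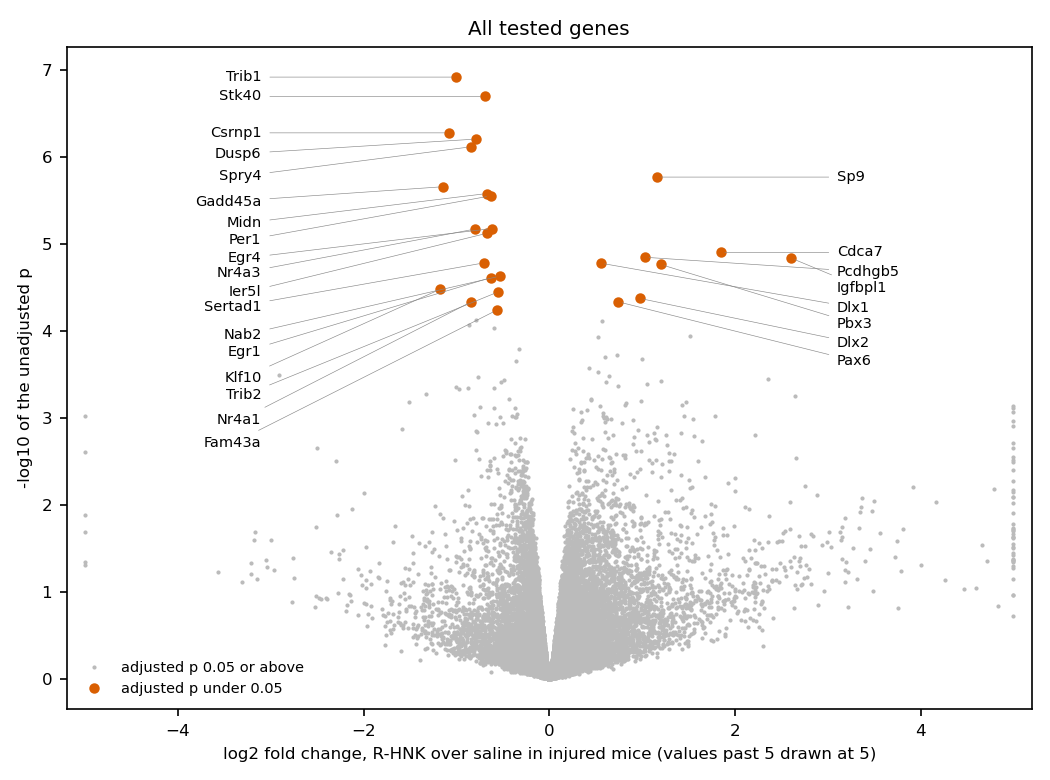
Every tested gene is a point, with the log2 fold change of R-HNK over saline in injured mice on the horizontal axis and -log10 of the unadjusted p on the vertical axis. The 26 called genes are named: 18 lie to the left and 8 to the right, and the 8 on the right reach larger fold changes, up to 2.60 for Igfbpl1.

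The genes that fell were led by regulators of signalling and transcription that neurons switch on with activity. Among 36 immediate early genes in the list used here 8 fell: Trib1, Csrnp1, Per1, Egr4, Nr4a3, Egr1, Klf10 and Nr4a1. None rose, and 28 did not pass. The median log2 fold change of the 36 was -0.56, with quartiles of -0.77 and -0.30, against 0.007 for all genes. An unadjusted p under 0.05 with a lower level was found for 26 of the 36, against 3.26% of all genes tested. The lists used here, this one included, were chosen with earlier results of these data known. Shares of list members set against all genes, here and below, are therefore descriptions and no test. Summed over the list, injured saline libraries read 3765, 3815 and 4000 CPM, R-HNK libraries 2308, 2635 and 2665 CPM and sham libraries 2090, 2000 and 2141 CPM, so the R-HNK libraries lay below every injured saline library and above every sham library. Without the 4 libraries raised in striatal markers (R-HNK 1 and 3, sham 2 and 3), which leaves R-HNK 2 as the lone treated library and assumes it varies like the rest, 9 members passed and the median was -0.51. Without injured saline 2 or injured saline 3 only 2 members passed, and without R-HNK 1 only 3 did.

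The promoters of 5 of the fallen immediate early genes are shown because each holds TGACG, the core of the site bound by CREB-family factors, which are switched on by calcium and cyclic AMP. Each is the RefSeq window of 300 bases, from 250 before to 50 after the annotated start, on GRCm38.p6 and read along the gene's own strand. Where a gene had several starts the one farthest upstream was taken. Capitals mark TGACG or, on the other strand, CGTCA.
Csrnp1, chr9:119984693-119984992, minus strand: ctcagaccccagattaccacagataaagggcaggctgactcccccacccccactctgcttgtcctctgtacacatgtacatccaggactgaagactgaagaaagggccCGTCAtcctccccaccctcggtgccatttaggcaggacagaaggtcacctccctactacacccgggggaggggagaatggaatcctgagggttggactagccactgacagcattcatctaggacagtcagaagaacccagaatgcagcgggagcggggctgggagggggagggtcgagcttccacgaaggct
Nr4a1, chr15:101266596-101266895, plus strand: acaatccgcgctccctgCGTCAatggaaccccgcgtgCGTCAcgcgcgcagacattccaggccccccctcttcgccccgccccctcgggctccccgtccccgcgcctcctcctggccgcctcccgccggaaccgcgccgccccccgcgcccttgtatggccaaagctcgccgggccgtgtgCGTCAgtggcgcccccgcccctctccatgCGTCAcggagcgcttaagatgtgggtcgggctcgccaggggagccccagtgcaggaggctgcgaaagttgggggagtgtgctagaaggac
Nr4a3, chr4:48045055-48045354, plus strand: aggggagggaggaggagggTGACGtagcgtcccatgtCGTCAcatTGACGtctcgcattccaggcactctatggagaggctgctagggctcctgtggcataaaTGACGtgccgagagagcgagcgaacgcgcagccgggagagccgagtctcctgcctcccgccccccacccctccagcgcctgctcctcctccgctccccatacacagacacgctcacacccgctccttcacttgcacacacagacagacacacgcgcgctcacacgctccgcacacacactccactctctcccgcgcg
Per1, chr11:69098699-69098998, plus strand: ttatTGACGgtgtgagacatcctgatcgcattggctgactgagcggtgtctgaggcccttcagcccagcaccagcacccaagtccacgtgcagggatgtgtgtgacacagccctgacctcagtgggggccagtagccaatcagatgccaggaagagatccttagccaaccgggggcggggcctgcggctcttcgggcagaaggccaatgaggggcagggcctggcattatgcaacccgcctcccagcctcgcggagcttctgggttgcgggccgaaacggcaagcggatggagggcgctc
Egr4, chr6:85513540-85513839, minus strand: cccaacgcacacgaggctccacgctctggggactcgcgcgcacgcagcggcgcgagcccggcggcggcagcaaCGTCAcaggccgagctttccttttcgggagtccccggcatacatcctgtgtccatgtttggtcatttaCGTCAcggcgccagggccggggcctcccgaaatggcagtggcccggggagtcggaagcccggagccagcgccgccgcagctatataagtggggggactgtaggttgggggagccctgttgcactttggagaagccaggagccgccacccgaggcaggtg
In these windows TGACG had 1 match in Csrnp1, 4 in Nr4a1, 4 in Nr4a3, 1 in Per1 and 2 in Egr4. Of the 18 genes that fell 14 had a RefSeq window, and 7 of the 14 held TGACG on either strand: these 5, Midn and Stk40. The letters are common, since 20.8% of all 32851 windows held them, and genes with several starts had more than 1 chance to match. Of the 8 genes that rose 5 had a window, and Dlx2 and Pax6 held TGACG. The full palindrome TGACGTCA, of which TGACG is a part, was in 1.79% of all windows, in none of the genes that fell and in Pax6 among those that rose. TGANTCA, the site of Fos and Jun dimers, was in 7.81% of all windows and among the fallen genes in Csrnp1, at another of its starts. GCGGGGGCG, the site of Egr factors, was in 2.91% of all windows and in Nr4a1. CACGTG, the E-box bound by the clock factors, was in 7.15% and in Midn, Per1 and Dlx2. TATAAA (13.6% of all windows) and the CArG box bound by SRF (1.63%) were found in no called gene with a window. Genes without a window, Trib1 and Klf10 among them, were not searched, so such an absence does not cover them. A match is a description of letters in this window and no evidence that a factor binds there.

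The pseudokinase genes Trib1, Stk40 and Trib2 were among those that fell. Trib1, which lies on chromosome 15 from 59648350 to 59657099 (GRCm38) and encodes a scaffold that brings substrates to the ubiquitin ligase COP1, read 49.5, 57.5 and 58.9 CPM in injured saline mice and 27.6, 25.5 and 29.6 CPM with R-HNK. The groups did not overlap, and sham mice read 21.8, 19.6 and 18.3 CPM. The log2 fold change was -1.003 ± 0.10 (SE), with an adjusted p of 0.00221 by edgeR's quasi-likelihood test. Stk40, a relative of the Tribbles proteins on chromosome 4 (126103957 to 126141029), had tight groups. It read 50.1, 51.2 and 52.6 CPM with saline, 31.0, 32.0 and 32.1 CPM with R-HNK, and 34.1, 31.0 and 31.6 CPM in sham mice. Its log2 fold change was -0.69 ± 0.07 (SE; edgeR adjusted p 0.00221), and the R-HNK and sham values lay within 1 range. Trib2, another member, fell by 0.55 on the log2 scale (edgeR adjusted p 0.0354), from 55.7 ± 4.33 to 38.1 ± 3.36 CPM (SD, n = 3). The remaining Tribbles gene, Trib3, did not pass and lay on the other side of 0: it read 0.174, 0.283 and 0.187 CPM with saline and 0.716, 0.588 and 0.718 CPM with R-HNK, without overlap (log2 fold change 1.64 ± 0.42 SE; edgeR adjusted p 0.322), and 0.650, 0.836 and 1.31 CPM in sham mice. Trib2, Nab2 and Fam43a fall outside the rule for naming genes and are named here after their values were seen.

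Csrnp1, a nuclear transcriptional regulator on chromosome 9, read 17.8, 19.2 and 17.9 CPM with saline and 8.01, 7.88 and 10.0 CPM with R-HNK. The R-HNK values came close to the 7.52, 7.52 and 7.60 CPM of sham mice. This was a log2 fold change of -1.08 ± 0.12 (SE; edgeR adjusted p 0.00335). Klf10, a zinc finger factor induced by TGF-beta, had the largest fall, -1.18 ± 0.17 (SE; edgeR adjusted p 0.0345), but also the widest spread. It read 52.3, 65.5 and 80.7 CPM with saline and 26.1, 34.4 and 27.4 CPM with R-HNK. Klf10 lost its call in 5 of the 9 fits that left out a library (injured saline 2 or 3, R-HNK 1 or 3, or sham 3), and its edgeR adjusted p was up to 0.63 over all settings.

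Both Nr4a genes that fell encode orphan nuclear receptors that act as transcription factors without a known ligand. Nr4a1 read 234, 233 and 240 CPM with saline, 112, 124 and 157 CPM with R-HNK, and 81.7, 77.6 and 105 CPM in sham mice, so each group stood apart from the next. The fall was -0.84 ± 0.13 on the log2 scale (SE; edgeR adjusted p 0.0406). Nr4a3 read 62.1, 72.3 and 75.9 CPM with saline against 42.9, 33.2 and 44.8 CPM with R-HNK, a log2 fold change of -0.80 ± 0.11 (SE; edgeR adjusted p 0.0134). The remaining receptor of the family did not pass: Nr4a2 read 22.5, 35.3 and 51.1 CPM with saline and 22, 26 and 44.8 CPM with R-HNK, and the 95% interval of its change ran from -1.11 to 0.64. Whether Nr4a2 differed from Nr4a1 and Nr4a3 in its response was not tested.

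Of the Egr zinc finger factors Egr1 and Egr4 fell, as did their corepressor Nab2. Egr1 on chromosome 18 read 644, 702 and 692 CPM with saline and 372, 510 and 434 CPM with R-HNK, a log2 fold change of -0.63 ± 0.10 (SE; edgeR adjusted p 0.0267). Egr4 read 119, 128 and 119 CPM with saline and 71.8, 82.9 and 83.8 CPM with R-HNK, a log2 fold change of -0.62 ± 0.08 (SE; edgeR adjusted p 0.0134). Nab2, which binds Egr proteins and represses their targets, fell from 59.7 ± 5.51 to 41.4 ± 1.39 CPM (SD, n = 3; edgeR adjusted p 0.0267). Egr2 lay just outside the threshold, at a log2 fold change of -0.87 with an edgeR adjusted p of 0.0638, and Egr3 had -0.54 with 0.249. Of Nab2's exon bases 35.7% overlap those of Gm16229 on the other strand, and the strand setting of the counting is not stated in the labels.

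Per1, a repressor of the circadian clock that is also induced by cyclic AMP, read 135, 148 and 153 CPM with saline and 101, 84.6 and 95.7 CPM with R-HNK. Its log2 fold change was -0.63 ± 0.08 (SE; edgeR adjusted p 0.00682). The rest of the clock did not follow at the threshold: of the 19 other clock genes none passed by edgeR, DESeq2 or limma-voom. At an unadjusted p under 0.05, 3 had a lower level, against 3.26% of all genes, and the median log2 fold change was -0.09. Per2 read 60.6 ± 4.76 CPM with saline and 48.9 ± 1.69 CPM with R-HNK (SD, n = 3; edgeR adjusted p 0.406).

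A phosphatase and a signalling inhibitor that damp the ERK cascade fell. Dusp6, the phosphatase that strips ERK of its activating phosphates, read 107, 113 and 120 CPM with saline and 63.3, 67.3 and 65.5 CPM with R-HNK. Sham mice read 59.4, 46.3 and 54.5 CPM, just under the R-HNK values. Its log2 fold change was -0.79 ± 0.09 (SE; edgeR adjusted p 0.00335). Spry4, which blocks signalling from receptor tyrosine kinases to ERK, read 22.8, 21.2 and 24.5 CPM with saline and 12.8, 12.5 and 12.9 CPM with R-HNK. The sham values of Spry4, 12.9, 11.9 and 12.2 CPM, lay around the R-HNK values. Spry4 thus had a log2 fold change of -0.84 ± 0.09 (SE; edgeR adjusted p 0.00335).

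Among 15 ERK feedback inhibitors in the list these 2 fell and 13 did not pass. The median log2 fold change was -0.31, and 10 of the 15 were lower at an unadjusted p under 0.05, against 3.26% of all genes. Dusp5, a nuclear ERK phosphatase, had a log2 fold change of -0.79 with an edgeR adjusted p of 0.0604, just outside the threshold. Dusp1 read 81.2, 75.4 and 78.6 CPM with saline and 41.0, 38.3 and 55.3 CPM with R-HNK, without overlap and without passing (edgeR adjusted p 0.249). Spry1 and Dusp8 had log2 fold changes of 0.09 and -0.02. With R-HNK 1 and 3 and sham 2 and 3 left out, Dusp6 had an edgeR adjusted p of 0.0169, and Spry4 lost its call with 0.0603 at a log2 fold change of -0.87.

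The other genes that fell belong to no list of activity genes used here, but several are known as early-response or stress genes. Gadd45a, induced by DNA damage and growth arrest, read 13.6, 18.0 and 19.0 CPM with saline and 7.97, 7.17 and 7.79 CPM with R-HNK (log2 fold change -1.14 ± 0.14 SE; edgeR adjusted p 0.00682). Of its exon bases 19.1% overlap the antisense gene E230016M11Rik. Midn encodes midnolin, which carries immediate early proteins to the proteasome, and it read 105, 110 and 112 CPM with saline and 67.2, 70.8 and 67.8 CPM with R-HNK (log2 fold change -0.67 ± 0.08 SE; edgeR adjusted p 0.00682). Sertad1, a partner of the cyclin-dependent kinase CDK4, fell from 14.2 ± 0.53 to 8.68 ± 0.093 CPM, Ier5l from 38.5 ± 3.5 to 24.2 ± 1.96 CPM and Fam43a from 25.3 ± 1.11 to 17.1 ± 1.52 CPM (SD, n = 3). Their edgeR adjusted p-values were 0.0209, 0.0137 and 0.0486. In each of the 18 genes that fell the 3 R-HNK values lay below the 3 injured saline values, as they did for 6.59% of all genes tested. The genes were called on these same libraries, so this separation largely follows from the call and adds no support.

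**Figure D2:**
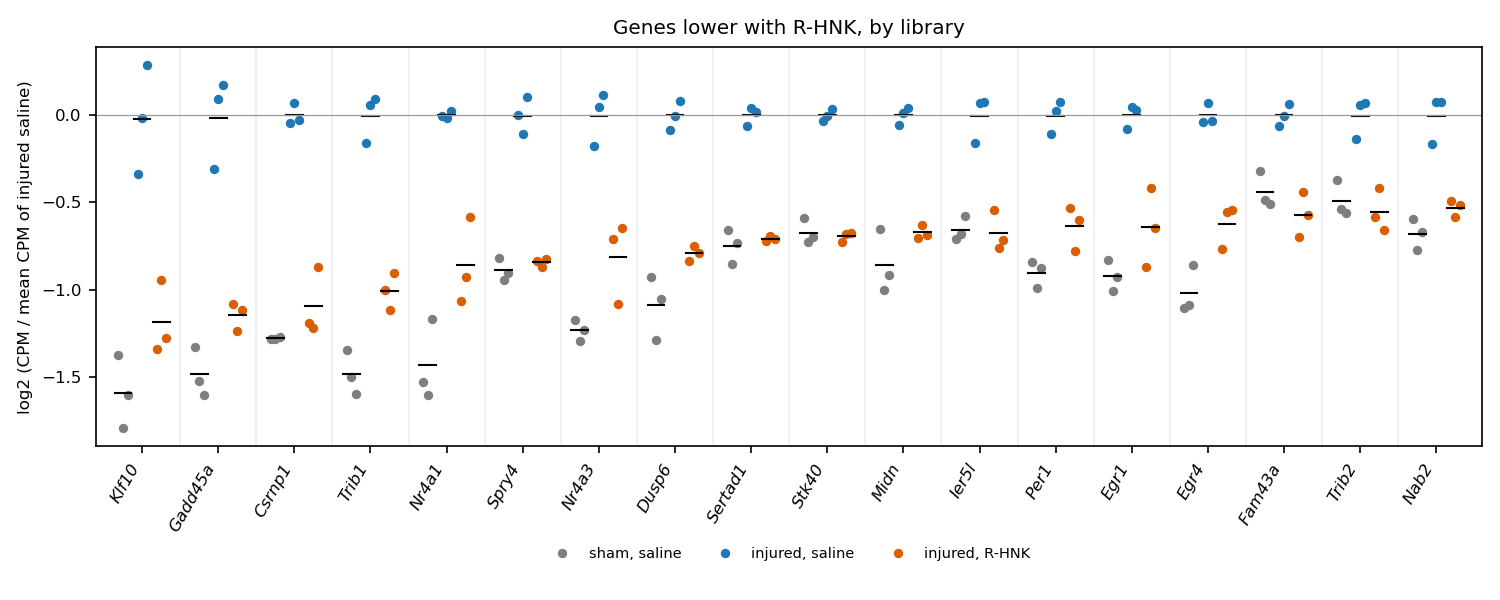
Each of the 18 genes that fell is shown with its 9 libraries as points, as log2 of CPM over the mean CPM of the injured saline libraries, with a black bar at the mean of the 3 log2 values. Grey is sham with saline, blue injured with saline and orange injured with R-HNK, and every orange point lies below every blue point of its gene.

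Some of the best-known activity genes were lower in every R-HNK library without passing the test. Arc, which encodes a synaptic protein that drives AMPA receptor removal, read 465, 506 and 620 CPM with saline, 176, 205 and 252 CPM with R-HNK, and 108, 125 and 187 CPM in sham mice. Its log2 fold change of -1.33 ± 0.23 (SE) was larger than that of any gene that fell, but the edgeR adjusted p was 0.213. Fos read 77.6, 87.8 and 87.7 CPM with saline and 42.0, 53.9 and 54.5 CPM with R-HNK (edgeR adjusted p 0.24). Not every immediate early gene was lower: Npas4, induced by calcium entry in neurons, read 77, 69.5 and 56.2 CPM with saline and 75.6, 63.6 and 70.1 CPM with R-HNK, and its interval ran from -0.42 to 0.51. Jun read 67.6, 69.9 and 73.2 CPM with saline and 72.3, 65.5 and 80.8 CPM with R-HNK, with an interval from -0.13 to 0.24. Both Npas4 and Jun had sham values inside or near the same ranges, at 41.9 to 76.0 CPM and 59.3 to 69.2 CPM.

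Set beside the sham mice, most of the genes that fell had been higher in injured saline mice. The comparisons share the injured saline libraries or the R-HNK libraries, so the values below are side by side and no test of one another. Between injured saline and sham mice 233 genes were called, 1.07% of those tested, and 17 of the 18 that fell with R-HNK were higher in injured saline mice, with Fam43a at 0.44 and an edgeR adjusted p of 0.0518. The log2 differences of injured saline over sham ran from 0.44 for Fam43a to 1.58 for Klf10. Between R-HNK and sham mice 1 gene was called, 0.00459% of those tested, and 769 genes (3.53%) had an unadjusted p under 0.05. None of the 26 genes was among the called: the edgeR adjusted p was 0.93 for Trib1 and 1 for the other 25. A p that misses the threshold does not show that the levels were alike, and the 95% intervals say how far apart they could be. For Trib1 the R-HNK level lay above sham by 0.47, with an interval from 0.26 to 0.68, and for Nr4a1 by 0.58, from 0.29 to 0.86. For Stk40 the difference was -0.02, from -0.17 to 0.13, and for Spry4 0.05, from -0.16 to 0.25.

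The 8 genes that rose were led by transcription factors and other genes of newly made neurons. Igfbpl1, a secreted protein of the insulin-like growth factor binding family found in young neurons, rose most, by a log2 fold change of 2.60 ± 0.36 (SE; edgeR adjusted p 0.0209). It read 0.696, 0.916 and 1.09 CPM with saline and 7.14, 3.88 and 5.43 CPM with R-HNK, and sham mice read 3.98, 7.73 and 10.8 CPM. Cdca7, a chromatin protein of cells preparing to divide, read 1.67, 2.07 and 1.76 CPM with saline against 7.67, 5.23 and 6.87 CPM with R-HNK (log2 fold change 1.85 ± 0.27 SE; edgeR adjusted p 0.0209). Both were low in every injured saline library, and their R-HNK values fell within or near the sham range.

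Sp9 is a zinc finger factor of inhibitory and striatal neuron precursors, on chromosome 2 from 73271925 to 73284706 (GRCm38). It read 6.17, 7.46 and 7.69 CPM with saline, 14.7, 18.1 and 14.8 CPM with R-HNK, and 16.0, 20.1 and 21.3 CPM in sham mice. Its log2 fold change was 1.16 ± 0.14 (SE; edgeR adjusted p 0.00622), and it was the one gene that rose to be called whichever single library was left out. Dlx1 and Dlx2, neighbouring homeobox genes that set the fate of inhibitory neurons, rose together. Dlx1 read 48.7, 42.9 and 41.9 CPM with saline and 62.8, 72.0 and 60.9 CPM with R-HNK, and Dlx2 6.19, 7.85 and 5.70 CPM against 13.3, 13.9 and 11.6 CPM. Their log2 fold changes were 0.55 ± 0.08 and 0.98 ± 0.16 (SE; edgeR adjusted p 0.0209 and 0.0402). Of Dlx1's exon bases 6.2% overlap the antisense gene Dlx1as.

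Pax6, a paired-box factor of neural progenitors and olfactory neurons, read 8.59, 7.36 and 7.01 CPM with saline and 13.1, 11.2 and 14.0 CPM with R-HNK (log2 fold change 0.74 ± 0.12 SE; edgeR adjusted p 0.0406). Pbx3, a homeodomain partner of other homeobox proteins, read 7.10, 5.22 and 5.97 CPM with saline and 11.5, 18.1 and 12.4 CPM with R-HNK (1.20 ± 0.18 SE; edgeR adjusted p 0.0209). In Pbx3 the highest R-HNK value was that of library 2, the R-HNK library with the highest olfactory sum. Pcdhgb5, a cell adhesion protein of the clustered gamma protocadherins, read 3.60, 3.95 and 4.52 CPM with saline and 8.90, 7.86 and 7.93 CPM with R-HNK (1.03 ± 0.15 SE; edgeR adjusted p 0.0209). Its count is uncertain, because 31.5% of its exon bases are constant exons that the other gamma protocadherins share. Of 22 gamma protocadherins, a list added after seeing the data, only Pcdhgb5 passed. Pcdhgb8 went the other way without passing, at 29.4, 47.6 and 26.8 CPM with saline, 5.56, 3.14 and 5.01 CPM with R-HNK and 40.3 to 94.9 CPM in sham mice (edgeR adjusted p 0.175).

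In each of the 8 genes that rose the 3 R-HNK values lay above the 3 injured saline values, as they did for 7.15% of all genes tested. Here too the genes were called on the same libraries, so the separation adds no support. All 8 had also been lower in injured saline than in sham mice, with log2 differences from -3.05 for Igfbpl1 to -0.68 for Dlx1, in a comparison that shares the injured saline libraries. 6 of the 8 (Pbx3, Dlx1, Dlx2, Cdca7, Sp9 and Pax6) lie on chromosome 2, which holds 7.73% of the tested genes that have a position. Dlx1 and Dlx2 are 9426 bases apart, Cdca7 lies 929 kb beyond Dlx2 and Sp9 785 kb beyond Cdca7. Position on a chromosome was looked at after the genes were known.

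**Figure D3:**
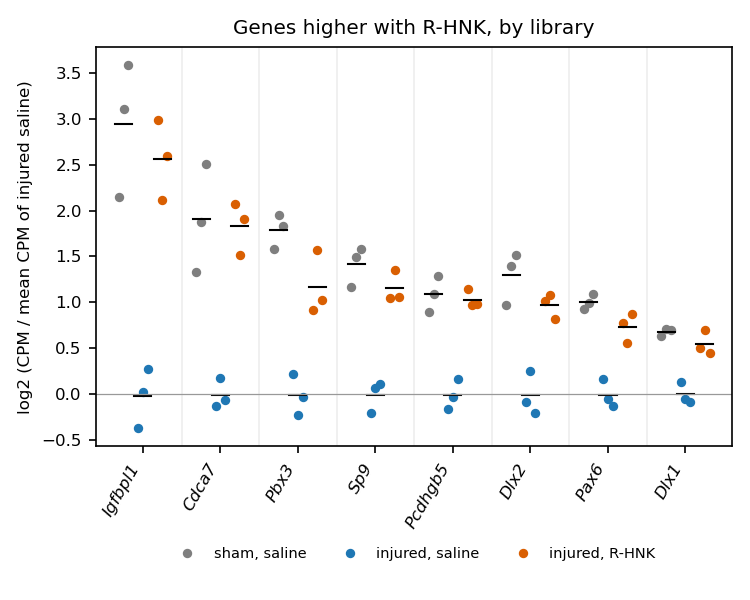
Each of the 8 genes that rose is shown with its 9 libraries as points, as log2 of CPM over the mean CPM of the injured saline libraries, with a black bar at the mean of the 3 log2 values. Grey is sham with saline, blue injured with saline and orange injured with R-HNK, and the orange points lie above the blue points in every gene and mostly within or below the range of the grey points.

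All of the 8 genes that rose except Pcdhgb5 are on a cell type marker list used here, and the levels of some such lists differed between the libraries. Of 18 markers of immature neurons and neuroblasts 6 rose (Sp9, Cdca7, Igfbpl1, Dlx1, Dlx2 and Pax6), none fell and 12 did not pass, with a median log2 fold change of 0.64. At an unadjusted p under 0.05 there were 14 higher and 0 lower, against 4.20% of all genes higher. Dcx, the microtubule protein of migrating neurons, read 37.3, 36.5 and 41.3 CPM with saline and 51.1, 70.1 and 47.2 CPM with R-HNK (edgeR adjusted p 0.24). Of the 18 markers 16 had a log2 fold change above 0. Tubb3, a neuronal tubulin that mature cortical neurons also carry, did not move that way. It read 441, 452 and 432 CPM with saline and 399, 435 and 370 CPM with R-HNK. The summed level of the list, set mainly by abundant members such as Tubb3, was 1470 to 1522 CPM with saline and 1453 to 1627 CPM with R-HNK.

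Levels of other cell type markers also differed between these libraries. In R-HNK libraries 1 and 3, which held the higher striatal sums, the dividing-cell gene Top2a read 5.35 and 6.60 CPM, against 1.56 CPM in R-HNK 2 and 0.974 to 2.58 CPM with saline. In R-HNK 2 the 12 olfactory bulb interneuron markers summed to 656 CPM, against 440 and 419 CPM in R-HNK 1 and 3, 381 to 437 CPM with saline and 673, 700 and 546 CPM in sham mice. Both of those lists were added after seeing the data. Pbx3 alone passed among the olfactory markers. Of the 13 dividing-cell genes none passed by edgeR, and 1, Hmgb2, was higher at an unadjusted p under 0.05, against 4.20% of all genes. The log2 fold changes of the 13 had a median of 0.33 and ran from -0.65 for Cdk1 to 1.40 for Hmgb2. Top2a, named after its values were seen, overlapped between the groups (edgeR adjusted p 0.725), and Pcna was at 0.02. The neuroblasts of the adult brain arise beside the striatum and migrate to the olfactory bulb. With the striatal score as a covariate 5 of the 18 markers passed, and with R-HNK 1 and 3 and sham 2 and 3 left out, which leaves R-HNK 2 as the lone treated library, 4 did (Sp9, Igfbpl1, Dlx1 and Dcx). Sp9 then had a log2 fold change of 1.34 (edgeR adjusted p 0.00677), Pbx3 1.57 (0.00396) and Igfbpl1 2.10 (0.0356), while Pax6 had 0.55 (0.85). An olfactory score was taken from the 5 tested markers of olfactory bulb mitral and tufted cells, not from the 12 interneuron markers. With both this olfactory score and a striatal score as covariates, an alternative added after seeing the data, no gene was called in either direction by edgeR. In that fit 968 genes had an unadjusted p under 0.05, and the 26 genes kept their sign. Sp9 then had a log2 fold change of 1.21, against 1.16 without covariates, with an edgeR adjusted p of 0.101, and Trib1 had -0.87 against -1.003, with 0.0871. The part of tissue mix in the 8 genes that rose was not tested beyond these values. Leaving out injured saline 2, injured saline 3 or R-HNK 1 left 1 passing marker of the 18, and leaving out R-HNK 3 left 2.

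**Figure D4:**
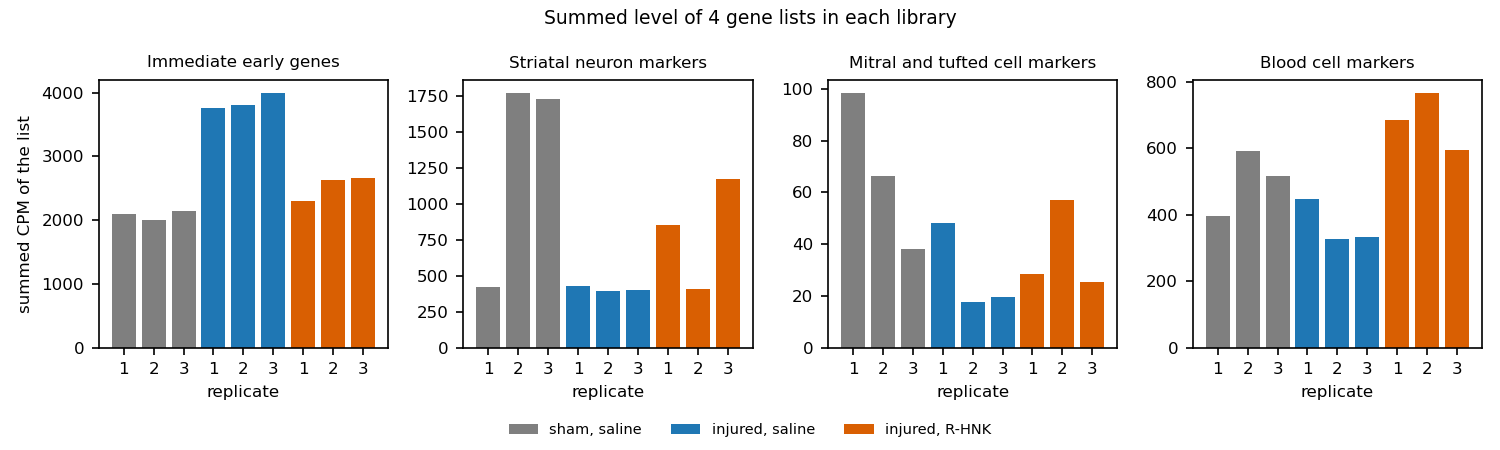
Bars give the summed CPM of 4 gene lists in each library, by replicate number, with sham saline in grey, injured saline in blue and injured R-HNK in orange. The immediate early sum is at least 3765 CPM in the 3 injured saline libraries and at most 2665 CPM in the 3 R-HNK libraries, and the striatal sum is raised in R-HNK 1 and 3 and sham 2 and 3. The mitral and tufted cell sum is highest in sham 1 and 2 (98.5 and 66.4 CPM), followed by R-HNK 2 (57.2 CPM) and injured saline 1 (48.0 CPM).

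Of 20 inhibitory interneuron markers 3 rose (Sp9, Dlx1 and Dlx2, which the list shares with the neuroblast list), none fell and 17 did not pass, with a median log2 fold change of 0.34. At an unadjusted p under 0.05, 9 were higher and 1 lower, against 4.20% and 3.26% of all genes. Of the 20, 14 lay above 0. The 3 R-HNK values lay above the 3 saline values in 11 members and below them in 1, against 7.15% and 6.59% of all genes. The markers of the main cortical interneuron classes were not among those that rose. Sst (somatostatin) read 215, 249 and 215 CPM with saline and 208, 210 and 248 CPM with R-HNK, with an interval from -0.25 to 0.20. Vip (vasoactive intestinal peptide) had an interval from -0.31 to 0.29. Pvalb (parvalbumin) read 35.5, 42.4 and 38.2 CPM with saline and 20.04, 33.9 and 25.7 CPM with R-HNK (edgeR adjusted p 0.672).

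Red blood cell genes were higher in all 3 R-HNK libraries without passing. The blood cell list summed to 446, 327 and 334 CPM with saline, 685, 766 and 594 CPM with R-HNK and 397 to 592 CPM in sham mice. Hba-a1, an alpha-globin gene, read 132, 89.2 and 87.8 CPM with saline and 207, 225 and 183 CPM with R-HNK, a log2 fold change of 0.99 ± 0.17 (SE; edgeR adjusted p 0.127). Alas2, the haem synthesis enzyme of red cell precursors, had 0.90 ± 0.21 (edgeR adjusted p 0.249). Of the 12 blood markers tested none passed by edgeR, 5 passed by DESeq2 and 1 by limma-voom. At an unadjusted p under 0.05, 5 of the 12 were higher, against 4.20% of all genes. The near-identical globin copies can share reads, so their single values are uncertain.

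The AMPA receptor, the target named in the study's title, showed no called change in transcript level. Among 21 genes for its pore-forming and auxiliary subunits none passed by edgeR or limma-voom and 1 passed by DESeq2. At an unadjusted p under 0.05, 4 were higher and 1 lower, against 4.20% and 3.26% of all genes. The median log2 fold change was 0.03. Gria1 read 416, 364 and 393 CPM with saline and 492, 398 and 439 CPM with R-HNK, and its interval ran from -0.02 to 0.38. Gria2, the subunit that sets calcium permeability, read 667, 685 and 750 CPM with saline and 688, 755 and 667 CPM with R-HNK. Its groups overlapped, and its interval ran from -0.15 to 0.16. Gria3 and Gria4 had intervals from -0.28 to 0.06 and from -0.43 to 0.09. The auxiliary subunit with the smallest p was Cacng5, at 10.5, 6.30 and 8.73 CPM with saline and 12.1, 19.9 and 12.9 CPM with R-HNK (log2 fold change 0.81 ± 0.21 SE; edgeR adjusted p 0.359), and its highest value was again in R-HNK 2. These are transcript levels, and where receptors sit in the membrane was not measured.

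No gene passed by edgeR, DESeq2 or limma-voom among 25 AMPA receptor trafficking genes, 21 genes for NMDA, kainate and metabotropic glutamate receptors or 26 genes for the postsynaptic scaffold. In these lists 2, 1 and 1 genes had an unadjusted p under 0.05, against 7.47% of all genes. Dlg4, which encodes the scaffold PSD-95, read 922 ± 79.5 CPM with saline and 900 ± 18.2 CPM with R-HNK (SD, n = 3), with an interval from -0.19 to 0.12. Of 30 synaptic vesicle release genes none passed by any of the 3 tools, and the median was -0.11. At an unadjusted p under 0.05, 6 of the 30 were lower and 0 higher, against 3.26% and 4.20% of all genes. Rph3a, a Rab3 effector on synaptic vesicles, read 672 ± 22.5 and 547 ± 32.8 CPM (edgeR adjusted p 0.553).

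Growth factor signalling, often linked to ketamine, also held no called gene. None of 32 genes of BDNF, VEGF and mTOR signalling was called by edgeR, DESeq2 or limma-voom. At an unadjusted p under 0.05, 1 was higher and 2 lower, against 4.20% and 3.26% of all genes. Bdnf, an activity-regulated neurotrophin, is a member of the immediate early list and is not counted among these 32. It read 38.1, 34.9 and 35.5 CPM with saline and 25.5, 27.8 and 24.5 CPM with R-HNK (log2 fold change -0.48 ± 0.14 SE; edgeR unadjusted p 0.0053, adjusted p 0.433). Its receptor gene Ntrk2 read 592 ± 48.1 CPM with saline and 672 ± 31.7 CPM with R-HNK, without overlap (edgeR adjusted p 0.625). Mtor had an interval from -0.14 to 0.11 around a log2 fold change of -0.01.

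Of the 41 lists, 4 held a called gene and 37 held none by edgeR. DESeq2 called at least 1 gene in 11 of the 37 and limma-voom in 3. Among those 37, at an unadjusted p under 0.05, which 4.20% of all genes met with a higher and 3.26% with a lower level, pathway lists leaning to the lower side included heat shock and protein folding (7 lower and 0 higher of 30), cholesterol synthesis (7 lower and 0 higher of 23), monoamine and acetylcholine receptors (8 lower and 2 higher of 35) and synaptic vesicle release (6 lower and 0 higher of 30). Lists leaning to the higher side included blood cells (5 higher and 0 lower of 12), meningeal and perivascular fibroblasts (5 higher and 0 lower of 20) and pericytes and smooth muscle (3 higher and 0 lower of 13). Dnajb5, a heat shock protein 40 co-chaperone, came nearest to passing, at 243, 240 and 240 CPM with saline against 142, 174 and 161 CPM with R-HNK (log2 fold change -0.60 ± 0.11 SE; edgeR adjusted p 0.0667). Adrb1, the beta-1 adrenergic receptor, read 60.1, 61.3 and 61.4 CPM with saline and 44.4, 51.9 and 45.4 CPM with R-HNK (edgeR adjusted p 0.249). At an unadjusted p under 0.05, of 18 microglia markers 2 were higher and 0 lower, and of 16 astrocyte markers 2 were higher and 1 lower. Of 13 oligodendrocyte precursor markers 2 were higher and 0 lower. Log2 fold changes lay above 0 in 15 microglia, 12 astrocyte and 13 precursor markers. C4b, a complement gene, read 5.79, 6.91 and 5.13 CPM with saline and 17.1, 9.16 and 23.2 CPM with R-HNK (edgeR adjusted p 0.238), with the higher values in R-HNK 1 and 3. Oligodendrocyte and myelin markers had log2 fold changes above 0 in 17 of 17 with a median of 0.28, and summed to 3666 to 5173 CPM with saline and to 5492, 3825 and 7371 CPM in R-HNK 1, 2 and 3.

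**Figure D5:**
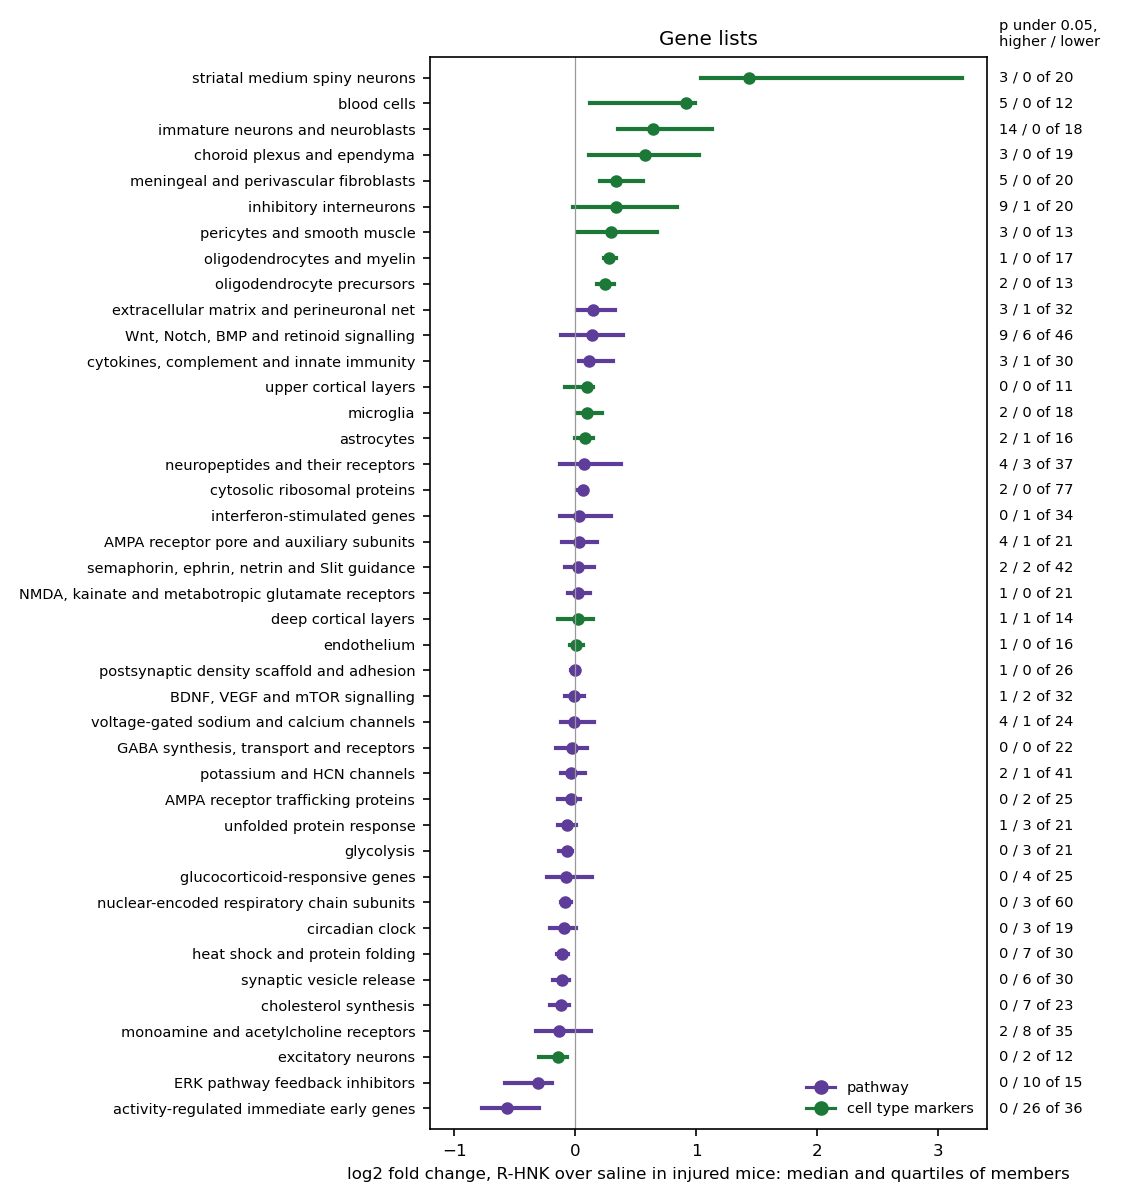
Each of the 41 lists is a row, with the median log2 fold change of its members as a point and the quartiles as a line, purple for pathways and green for cell type markers. The numbers at the right count members higher and lower at an unadjusted p under 0.05. The immediate early list is lowest at -0.56 and the striatal marker list highest at 1.43, with a wide spread.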

How the data were processed

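RNA from the prelimbic cortex was sequenced as 9 libraries in 3 groups of 3, each taken as a separate mouse. Groups and replicate numbers were taken from the sample titles. The authors deposited expected counts (estimated read counts per gene symbol, whole numbers, not normalized). The submitters' processing notes name HISAT2 2.0.5, mm10 and featureCounts 1.5.0-p3. The deposited counts are labelled stringtie, another counting tool, so which tool made them is uncertain. Strand and pair settings are not given in the sources used here. The members and lists were chosen with earlier results of these data known.

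The table had 55335 lines: 20334 held 0 counts throughout, 216 belonged to repeated symbols and were kept apart, and 27 symbols had become dates. The 37 mitochondrial genes held 0 counts and were not tested. After filterByExpr by group, 21765 genes remained and held 99.96% of all counts. TMM factors were 0.979 to 1.03. Models were fitted in R 4.3.3 with edgeR 4.0.16 (robust quasi-likelihood, 1 mean for each of the 3 groups over all 9 libraries, biological coefficient of variation 0.203), with Benjamini-Hochberg adjustment and a threshold of 0.05. SEs were worked back from F, intervals are 95%, and CPM uses TMM-scaled library sizes. The fit was checked on simulated counts. Alternatives were other scalings (relative log expression, upper quartile), other filters, DESeq2 1.42.0, voom in limma 3.58.1, the 6 injured libraries alone, a replicate block, marker scores as covariates and each library left out.

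Genes were named by rule: up to 15 per direction by fold change among called genes whose mean log2 CPM was 0 or above, with a full symbol and no overlap between groups, up to 4 called members of each list, up to 2 with the smallest p where none was called, Gria1 to Gria4, Dlg4, Bdnf, Ntrk2 and Mtor, and up to 10 that passed both striatal alternatives. A few genes that the rule would name are not reported here. Arc, Fos, Npas4, Jun, other list members and genes of the 4 added lists, named for description, were chosen after their values were seen. Positions come from GENCODE M21 on GRCm38, which matched 98.3% of the tested symbols, and promoters from RefSeq.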

Additional observations from a re-analysis of the deposited data

How the results depend on the processing

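Relative log expression and upper-quartile scaling, no filter and a filter on mean log2 CPM called 25 to 31 genes. DESeq2 called 140 genes (84 higher, 56 lower), limma-voom 49 (16 and 33) and the 2 injured groups fitted alone 53 (18 and 35). A striatal covariate gave 30 calls, 19 of them among the 26. Dropping the 4 libraries with raised striatal sums gave 37, of which 17 were higher. Most of the 26 lost their call in that fit, which has R-HNK 2 as the lone treated library, though all 26 kept their sign. Leaving out 1 library at a time gave 7 to 56 genes, 2 to 25 higher and 5 to 31 lower. The olfactory score as a covariate, added after seeing the data, called 51 genes (22 and 29), and the olfactory and striatal scores together 0 (0 and 0), with 968 at an unadjusted p under 0.05. The cause was not tested. The labels give no pairing beyond the replicate numbers. Same-numbered R-HNK and saline libraries had deviations from their group means correlated at -0.023, -0.033 and -0.031. For R-HNK and sham libraries the values were -0.1, -0.027 and 0.092. Differently numbered libraries were not compared, so these values cannot exclude a pairing. A replicate block called 16 genes (2 higher, 14 lower), 13 of them among the 26.

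The genes reported here whose sign turned under an alternative were ones not called. Gria2 had -0.000128 with relative log expression scaling, -0.000141 with DESeq2, -0.00142 with the olfactory covariate and -0.048 to 0.0573 over the fits without 1 library, below 0 without injured saline 1, injured saline 2 or R-HNK 2. Gria4 had 0.020 with the striatal covariate, 0.050 without the 4 libraries and 0.048 with both covariates, and Gria3 0.021 and Grin3a -0.0080 without the 4 libraries. Neurod2 had 0.017 with both covariates. Dlg4 had -0.0833 to 0.0282 over the fits without 1 library, above 0 without injured saline 1. Mtor had 0.0029 with limma-voom, 0.00884 with the striatal covariate, 0.014 without the 4 libraries, and -0.041 to 0.0125 over the fits without 1 library, above 0 without injured saline 3 or R-HNK 3. Depth was 53624337 to 73586375 counts per library.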

Other observations

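Genes outside the called 26 were called when the mix of tissue was treated otherwise, while some of the 26 lost their call. With the striatal score as a covariate the further calls included Dusp1, a phosphatase of MAP kinases (log2 fold change -1.06, edgeR adjusted p 0.00758), the zinc finger factor Egr2 (-1.06, 0.0119), Tiparp (-1.09, 0.0145), the kinase gene Sik1 (-1.06, 0.0412) and Klf2 (-0.92, 0.0446), all lower with R-HNK and all members of the immediate early or ERK feedback lists. Dcx was higher (0.69, 0.0227).

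Without the 4 libraries raised in striatal markers, where R-HNK 2 is the lone treated library, Arc was called at -1.38 (edgeR adjusted p 0.00643) and Junb, a partner of Fos, at -0.78 (0.00861). The beta-globin genes Hbb-bs and Hbb-bt were called at 1.20 (0.00265) and 1.18 (0.0054). Genes of the olfactory bulb were called in the same fit: Tshz1 at 1.09 (0.00357), Shisa8, an AMPA receptor auxiliary subunit, at 1.89 (0.00357) and Gng4 at 0.93 (0.00617). Shisa8 read 4.32, 14.6 and 5.79 CPM in R-HNK libraries 1, 2 and 3 against 4.92, 3.17 and 3.71 CPM with saline, so its call in that fit rests on R-HNK 2. Hnrnpa3, an RNA-binding protein gene, was called there at -4.73 against -0.79 with all libraries (edgeR adjusted p 0.931).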
